A study of Homo sapiens with 48 samples.

Results

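Nuclear factor kappa B (NF-kB) was followed through 10 genes. They included the subunits NFKB1, NFKB2, RELA and RELB, and the inhibitors and negative regulators NFKBIA, TNFAIP3 and TNIP1. The rest were the regulator NFKBIZ and the target genes BIRC3 and ICAM1. A gene was measured by the probe sets annotated with its symbol alone, and where there were several, by the one with the highest mean log2(signal + 16) over the 48 arrays. By this rule 9 of the 10 genes had a probe set, out of 19775 genes in all. All 9 passed the filter on dim genes and were among the 14409 genes tested. BIRC3 had no probe set with that symbol alone in the annotation used, and was not analysed here.

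Expression was measured on Affymetrix arrays in confluent BEAS-2B cells, an immortalised line from human bronchial epithelium. The cells were grown in serum-free keratinocyte medium, kept without its growth supplements before treatment, and given vehicle, Ind/GSK or GS-5759 for 1, 2, 6 or 18 h, with 4 replicates in each of the 12 groups. Ind/GSK is indacaterol, a long-acting β2-adrenoceptor agonist, with GSK256066, an inhibitor of the cyclic AMP-degrading enzyme phosphodiesterase 4, both at 10 nM. GS-5759 at 10 nM is a single compound that carries both activities. The labels name no inflammatory stimulus in any group.

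NF-kB proteins bind DNA as dimers and are held in the cytoplasm by inhibitors of the IκB family, of which NFKBIA encodes IκBα. Upstream kinases mark IκBα for destruction, and the dimers enter the nucleus. There they transcribe inflammatory genes together with NFKBIZ and their own inhibitors NFKBIA, TNFAIP3 and TNIP1. In airway epithelium the pathway drives cytokines, chemokines and adhesion molecules such as ICAM1. Cyclic AMP acts through protein kinase A and the factor CREB, which binds a cyclic AMP response element (CRE) in DNA.

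For the members on which the results turn, the promoter windows that held a match are given first, because both kinds of binding site can be sought in them. They run from 250 bases before to 50 bases after an annotated start in RefSeq (GRCh38.p14), and 15 windows matched 9 of the 10 genes, all but RELB. Capitals mark matches to the NF-kB consensus, searched by that name in its degenerate form, and to the CRE core TGACG, both on either strand. Matches may overlap, and a palindromic match counts on both strands.

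NFKBIZ chr3:101827740-101828039 (plus strand): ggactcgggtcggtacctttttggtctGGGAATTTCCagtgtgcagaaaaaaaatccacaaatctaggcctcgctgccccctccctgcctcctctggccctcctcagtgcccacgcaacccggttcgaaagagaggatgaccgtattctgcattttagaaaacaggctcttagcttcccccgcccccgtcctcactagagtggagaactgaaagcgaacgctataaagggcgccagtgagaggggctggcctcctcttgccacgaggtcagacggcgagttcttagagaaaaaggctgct

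NFKBIZ chr3:101849264-101849563 (plus strand): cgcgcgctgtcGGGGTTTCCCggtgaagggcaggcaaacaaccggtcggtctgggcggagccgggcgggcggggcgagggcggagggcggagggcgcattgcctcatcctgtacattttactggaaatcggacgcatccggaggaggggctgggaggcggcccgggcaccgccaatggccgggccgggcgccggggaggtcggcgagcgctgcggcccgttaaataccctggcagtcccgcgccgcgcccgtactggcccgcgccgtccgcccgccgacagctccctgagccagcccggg

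NFKB2 chr10:102394328-102394627 (plus strand): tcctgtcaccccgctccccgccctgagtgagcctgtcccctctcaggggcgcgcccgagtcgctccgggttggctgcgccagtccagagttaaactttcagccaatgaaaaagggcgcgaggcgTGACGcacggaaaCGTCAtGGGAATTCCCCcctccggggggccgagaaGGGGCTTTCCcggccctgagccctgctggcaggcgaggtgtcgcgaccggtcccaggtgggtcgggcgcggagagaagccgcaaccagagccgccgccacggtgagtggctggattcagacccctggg

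NFKB2 chr10:102395455-102395754 (plus strand): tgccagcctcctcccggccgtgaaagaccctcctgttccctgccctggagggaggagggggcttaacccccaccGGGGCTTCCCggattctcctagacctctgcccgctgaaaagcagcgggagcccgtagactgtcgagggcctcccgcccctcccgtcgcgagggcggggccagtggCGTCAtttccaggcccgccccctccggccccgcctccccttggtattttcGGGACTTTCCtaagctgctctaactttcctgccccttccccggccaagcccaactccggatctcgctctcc

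NFKBIA chr14:35404700-35404999 (minus strand): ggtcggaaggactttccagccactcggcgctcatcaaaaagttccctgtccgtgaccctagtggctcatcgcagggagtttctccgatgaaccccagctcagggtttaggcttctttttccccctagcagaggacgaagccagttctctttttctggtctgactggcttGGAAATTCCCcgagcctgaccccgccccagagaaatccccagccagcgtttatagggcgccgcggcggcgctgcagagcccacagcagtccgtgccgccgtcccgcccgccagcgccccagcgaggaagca

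The NF-kB consensus was found in 9 of the 15 windows, from 7 of the 9 genes, against 5.91% of the 35114 promoters of the same length. The CRE core was found in 6 of the 15 windows, from 4 genes, against 24.6% of all promoters, and the full palindromic CRE, TGAC followed by its reverse complement, in 0 of 15 against 1.85%. In NFKBIZ the consensus lay 223 to 214 bases before one start and 239 to 230 bases before the other, and neither window held a CRE core. In NFKB2 the first window shown had 4 consensus matches and 2 CRE cores, and the second had 2 matches and 1 core. In the first, the matches at 107 to 97 bases before the start overlap. A further NFKB2 window, not shown, held neither a consensus match nor a CRE core. In NFKBIA the match lay 81 to 72 bases before the start. A match describes the letters only and is not evidence that a factor binds there.

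The arrays correlated with one another at 0.968 to 0.997, and no pair of arrays held identical values. The summed signal of 9 epithelial markers placed the arrays of replicate 3 apart. It was 53060 to 60560 in the 12 arrays of replicate 3 and 10370 to 16820 in the other 36. KRT5 had the widest range of the 9, from 108 to 36310, and a sum of raw signals follows it most. KRT8 (3112 to 6970) and KRT18 (5313 to 9218) varied less, and CDH1, ITGB4 and CLDN1 also passed the filter. EPCAM (28.4 to 255.8) and LAMB3 (56.6 to 493.6) passed with low means of 103.9 and 167.6, and KRT19 (0.0029 to 4520) was not tested. Of 8 fibroblast markers all passed the filter: COL1A1, VIM, PDGFRB and THY1 had mean signals of 9035, 10910, 1811 and 1395, and COL1A2, COL3A1, DCN and LUM lay between 80.2 and 140.5, near the filter. Of 6 leukocyte markers 4 passed (CD3E, CD14, ITGAM and CSF1R, means 85.3 to 259.5), while PTPRC (28.4) and CD2 (76.5) were not tested. Of 6 endothelial markers PECAM1 (520.4) and VWF (76.8) passed, while CDH5 (12.5), TEK, KDR and TIE1 did not. The epithelial sum separated replicate 3 from the other replicates and not the treatments, its highest value being 57530 with vehicle, 56720 with Ind/GSK and 60560 with GS-5759. The leukocyte sum, 649 to 834 in replicate 3 and 570.3 to 737 in the others, overlapped. In replicate 3 NFKBIA was the highest of the 4 arrays in 12 of 12 groups, and TNFAIP3, TNIP1 and ICAM1 were the lowest in 12 of 12. Its median signal was 2481 for NFKBIA against 1843, 1453 and 1370 in replicates 1, 2 and 4, and 198 for TNFAIP3 against 478, 408 and 344. Their part in the results was not tested, and calls are given with and without replicate 3. Whether the replicates were separate cultures is not stated in the labels, so the p-values rest on the variation among these arrays, which may be technical, and the number of arrays limits the precision.

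The scale of the arrays shifted slightly with treatment. At 1 h with Ind/GSK the median log2 difference from vehicle over all tested genes was -0.10, and 65 genes rose while 199 fell. After quantile normalization it was -0.01, with 83 risen and 20 fallen, and after centring each array on its 75th percentile 0.02, with 196 and 15. The split also moved at 2 h, from 193 risen and 311 fallen to 222 and 229 after quantile normalization for Ind/GSK, and from 230 and 120 to 220 and 233 for GS-5759. At 6 h it moved from 148 and 389 to 218 and 276 for Ind/GSK, and from 149 and 79 to 155 and 156 for GS-5759. Member differences are therefore read beside the median of all genes.

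NFKBIZ and NFKB2 were the members that rose in the drug-treated cells, at 1 and 2 h and at 2 h respectively, and no member fell in the fit without a replicate block. NFKBIZ rose with both treatments, to at most 1.73-fold of vehicle. NFKB2 rose 1.34-fold with GS-5759 at 2 h. In that fit the other 7 members did not pass at any time, and at 6 and 18 h no member passed. The replicate numbers pair the arrays, and with the number as a block NFKBIA and TNFAIP3 also rose at 2 h, ICAM1 rose at 6 h, and TNIP1 and RELA fell with Ind/GSK at 1 h, as given under each gene. A difference passed when its adjusted p was under 0.05, by limma with Benjamini-Hochberg adjustment over the 14409 genes in one fit of all 48 arrays. Differences are on the log2(signal + 16) scale, which understates the change of dim genes. In bulk RNA, a change in the share of cells that express a gene cannot be told apart from a change in each cell.

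NFKBIZ encodes IκBζ, a nuclear member of the IκB family that is needed for transcription of IL6 and other secondary response genes. At 1 h its signal was 349, 434, 332 and 446 in the vehicle arrays of replicates 1 to 4 (mean 390.4 ± 58.2, SD, n = 4). It was 486, 592, 623 and 691 with Ind/GSK (598 ± 85.6), and 552, 806, 685 and 703 with GS-5759 (686 ± 104). Every treated array at 1 h lay above every vehicle array. The log2 difference from vehicle was 0.60 ± 0.12 (SE) for Ind/GSK, 1.51-fold, with adjusted p = 0.00452 by limma. For GS-5759 it was 0.79 ± 0.12, 1.73-fold, with adjusted p = 8.59e-05.

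At 2 h NFKBIZ was lower in all groups and kept the same order. The vehicle arrays read 267, 342, 256 and 299 (291 ± 38.6), the Ind/GSK arrays 399, 458, 454 and 417 (432 ± 28.5), and the GS-5759 arrays 473, 530.2, 522 and 441 (492 ± 42.2). Treated and vehicle arrays again did not overlap. The difference was 0.55 ± 0.12 for Ind/GSK, 1.47-fold, with adjusted p = 0.00384 by limma, and 0.73 ± 0.12 for GS-5759, 1.66-fold, with adjusted p = 9.50e-05. At 6 h the arrays spanned 271 to 382 with vehicle, 347 to 408 with Ind/GSK and 354 to 402 with GS-5759, and the groups overlapped. Within each replicate number the treated array was above its vehicle array in 4 of 4 with either treatment. The NFKBIZ differences of 0.24 (adjusted p = 0.348) and 0.27 (0.327) did not pass. For Ind/GSK the blocked adjusted p was 0.0858 as deposited, 0.028 on quantile-normalized arrays, 0.0277 on arrays centred at the 75th percentile, and 0.387 when replicate 3 was left out. Nor did the test call the differences of -0.14 (0.9999) and -0.02 (1) at 18 h. The decline of the mean NFKBIZ response from 2 to 6 h, tested as an interaction in limma, was -0.39 ± 0.15 with adjusted p = 0.385. That fit did not show the times to differ, and with the block no member passed for this change. With the block after quantile normalization or 75th percentile centring a member did, so the outcome for the members depends on the fit.

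Without replicate 3 the NFKBIZ differences were 0.50 and 0.71 at 1 h (adjusted p = 0.0471 and 0.00716) and 0.47 and 0.64 at 2 h (0.0619 and 0.00484), so that the Ind/GSK difference at 2 h no longer passed. With replicate number as a block and replicate 3 left out all 4 passed, with adjusted p from 0.000147 to 0.00665. In fits of the compared groups alone NFKBIZ passed with GS-5759 at 2 h (0.0223), and did not with Ind/GSK or GS-5759 at 1 h (0.39 and 0.178) or with Ind/GSK at 2 h (0.0742). A second NFKBIZ probe set gave 0.23 and 0.50 at 1 h and 0.17 and 0.27 at 2 h, none of which passed.

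Over the 12 groups NFKBIZ was highest with GS-5759 at 1 h (686), then with Ind/GSK at 1 h (598), GS-5759 at 2 h (492), Ind/GSK at 2 h (432) and vehicle at 1 h (390.4). The lowest group was vehicle at 2 h (291), 2.36-fold below the highest, and each group overlapped with the next in this order. The 3 genes most like NFKBIZ over the 12 group means, which come from the same arrays, were SPRY2 (Pearson r = 0.976), SNAI2 (0.974) and CXCL2 (0.964).

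**Figure D1:**
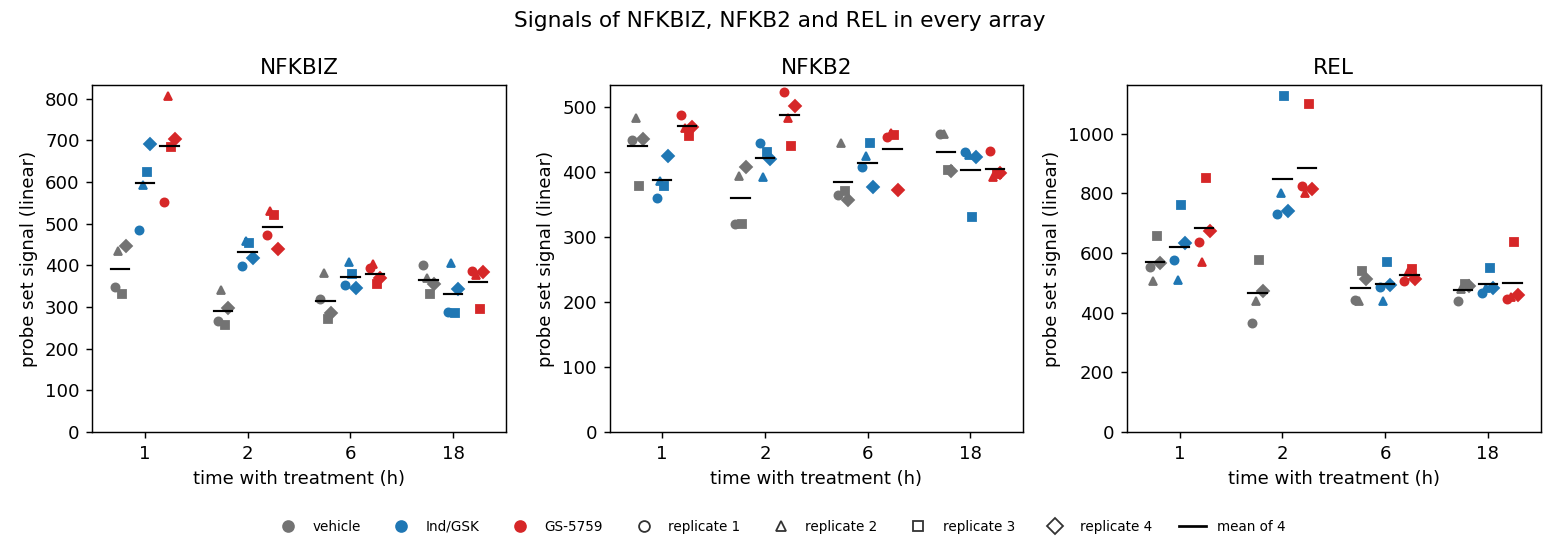
Probe set signal (linear axis from 0) of NFKBIZ, NFKB2 and the further subunit gene REL in each of the 48 arrays by time with treatment in h; colours are treatments, marker shapes replicates, and black bars means of 4 arrays. NFKBIZ lies above vehicle at 1 and 2 h with both treatments, NFKB2 at 2 h with GS-5759 (439 to 523 against 320 to 407), and REL at 2 h with both.

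NFKBIA, the gene of the cytoplasmic inhibitor IκBα, did not pass in any of the 8 comparisons with vehicle, where its differences ran from -0.03 to 0.36 (lowest adjusted p = 0.65 by limma). At 1 h its signal was 2259.7, 2006, 2613 and 2494 with vehicle, 2708, 1659, 4197 and 2130.1 with Ind/GSK, and 2776, 2042, 4666 and 2312 with GS-5759. The arrays of replicate 3 were the highest with each treatment, and the 3 groups overlapped. At 2 h the vehicle arrays read 1421, 1303, 1923 and 1306, the Ind/GSK arrays 1988, 1460.2, 2748 and 1393, and the GS-5759 arrays 2109.6, 1494, 2683 and 1495. These groups overlapped too, but within each replicate number the treated array was above its vehicle array in 4 of 4 with either treatment. With GS-5759 at 2 h the blocked fit gave 0.36 ± 0.12 with adjusted p = 0.0435, and without replicate 3 the blocked difference was 0.32 with adjusted p = 0.0665. This NFKBIA difference passed with the block after 75th percentile centring and not after quantile normalization. With Ind/GSK at 2 h NFKBIA passed only with the block after 75th percentile centring (0.33, adjusted p = 0.0446 by limma). A second NFKBIA probe set differed in sign at 2 h, at -0.17 with Ind/GSK and -0.11 with GS-5759, and did not pass.

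TNFAIP3 encodes A20, a ubiquitin-editing enzyme that shuts off NF-kB signalling. Its signal at 2 h was 246, 288, 126 and 227 with vehicle, 481, 377, 189 and 303 with Ind/GSK, and 499, 421, 211 and 310.02 with GS-5759. Replicate 3 was lowest in each group, and the groups overlapped through it, while each treated array was above the vehicle array of its own number. The differences were 0.55 ± 0.38 (adjusted p = 0.601 by limma) and 0.65 ± 0.38 (0.529), and did not pass. As a blocked comparison both TNFAIP3 differences at 2 h passed, with SE 0.17 and adjusted p = 0.0233 and 0.00854, and without replicate 3 the blocked adjusted p was 0.12 and 0.066. At 1 h TNFAIP3 differed by 0.30 with Ind/GSK and 0.52 with GS-5759, and at 6 and 18 h by at most 0.15, none of which passed. Its second probe set gave 0.47 and 0.53 at 2 h.

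TNIP1, which encodes the A20-binding protein ABIN1, differed from vehicle by -0.18 to 0.02 over the 8 comparisons. At 1 h it was 3377, 3819, 3101 and 3782 with vehicle and 2848, 3309.9, 2757 and 3500.1 with Ind/GSK. Each Ind/GSK array was below the vehicle array of its number, but the groups overlapped. The TNIP1 difference of -0.18 did not pass by limma (adjusted p = 0.461) and passed with the block (0.011), yet not with the block after quantile normalization (0.263) or 75th percentile centring (0.521). With the block and without replicate 3 it was -0.19 and passed. A second TNIP1 probe set gave -0.05 with Ind/GSK at 1 h and did not pass in the fit without the block.

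NFKB2 encodes p100, which both restrains NF-kB dimers and is cut to the subunit p52 of the alternative pathway. At 2 h its signal was 320.3, 394, 320 and 407 with vehicle (360 ± 46.7, SD, n = 4), 444, 391, 430.2 and 419 with Ind/GSK (421 ± 22.3), and 523, 482, 439 and 501 with GS-5759 (487 ± 35.6). The GS-5759 arrays lay above all vehicle arrays, and the Ind/GSK arrays overlapped with vehicle. The difference from vehicle was 0.42 ± 0.09 with GS-5759, 1.34-fold, with adjusted p = 0.00194 by limma, and 0.22 ± 0.09 with Ind/GSK, with adjusted p = 0.183. For Ind/GSK the blocked NFKB2 adjusted p was 0.0632 as deposited, 0.0174 and 0.0221 on quantile-normalized and percentile-centred arrays, and 0.335 when replicate 3 was left out. A second NFKB2 probe set gave 0.535 with GS-5759 at 2 h and also passed (0.022), and another lay under the filter. Without replicate 3 the NFKB2 difference with GS-5759 was 0.42 (adjusted p = 0.00561), but without replicate 1 it was 0.34 (0.172), and in a fit of the compared groups alone the adjusted p was 0.146.

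At 1 h NFKB2 was 449, 483, 379 and 450.05 with vehicle, 359, 385, 378 and 425 with Ind/GSK, and 487, 467, 456 and 469 with GS-5759. The Ind/GSK mean was below vehicle and the GS-5759 mean above it, with differences of -0.18 (adjusted p = 0.265) and 0.10 (0.9999) that did not pass. At 6 h the differences were 0.10 and 0.17, and at 18 h -0.10 and -0.08. The change of the mean NFKB2 response from 1 to 2 h was 0.36 ± 0.11 with adjusted p = 0.174 by limma, 0.0372 with the block and 0.0552 with the block without replicate 3. Group means of NFKB2 ran from 360 with vehicle at 2 h to 487 with GS-5759 at 2 h, a 1.35-fold range. The genes most like it over the 12 group means were MBTPS1 (Pearson r = 0.868), ELK2AP (0.855) and CALCOCO1 (0.854).

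NFKB1, the gene of p105 and its product p50, differed from vehicle by -0.14 to 0.08 and never passed. At 1 h it was 422.32, 422.34, 428 and 397 with vehicle, 381, 369, 408 and 356 with Ind/GSK, and 409, 428, 484 and 423 with GS-5759. Both treated groups overlapped with vehicle. RELA encodes p65, the main transactivating subunit, and was 3066, 3006, 2669 and 3018 with vehicle and 2354, 2565, 2418 and 2841 with Ind/GSK at 1 h. Its 4 Ind/GSK arrays were each below the vehicle array of the same number, but the groups overlapped. The RELA difference of -0.21 ± 0.08 did not pass by limma (adjusted p = 0.161), passed with the block (0.0177), and did not with the block after quantile normalization (0.176) or 75th percentile centring (0.414). With the block and without replicate 3 it was -0.23 and passed. A second RELA probe set gave -0.26 with Ind/GSK at 1 h and did not pass in the fit without the block. RELB, the partner of p52, had signals from 80.3 to 213 and differed by -0.07 to 0.22 without passing.

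ICAM1 encodes an adhesion molecule of epithelium and endothelium and was the one target gene with a probe set. At 6 h it was 922, 741, 445 and 668 with vehicle, 953, 754, 531 and 648 with Ind/GSK, and 1016, 932, 591 and 659 with GS-5759. Replicate 3 was the lowest in each group, and the groups overlapped. Over the 8 comparisons its differences ran from -0.12 to 0.21. Their 95% intervals in the fit without the block, which does not use the pairing, reached from -0.68 to 0.78. That fit does not bound a change of ICAM1 closely, and intervals with the block are not given here. With GS-5759 at 6 h the ICAM1 difference of 0.21 (adjusted p = 0.883 by limma) passed with the block (0.0495) and not with the block without replicate 3 (0.15, adjusted p = 0.261). Its other 2 probe sets gave 0.20 and 0.17 there, and neither passed.

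**Figure D2:**
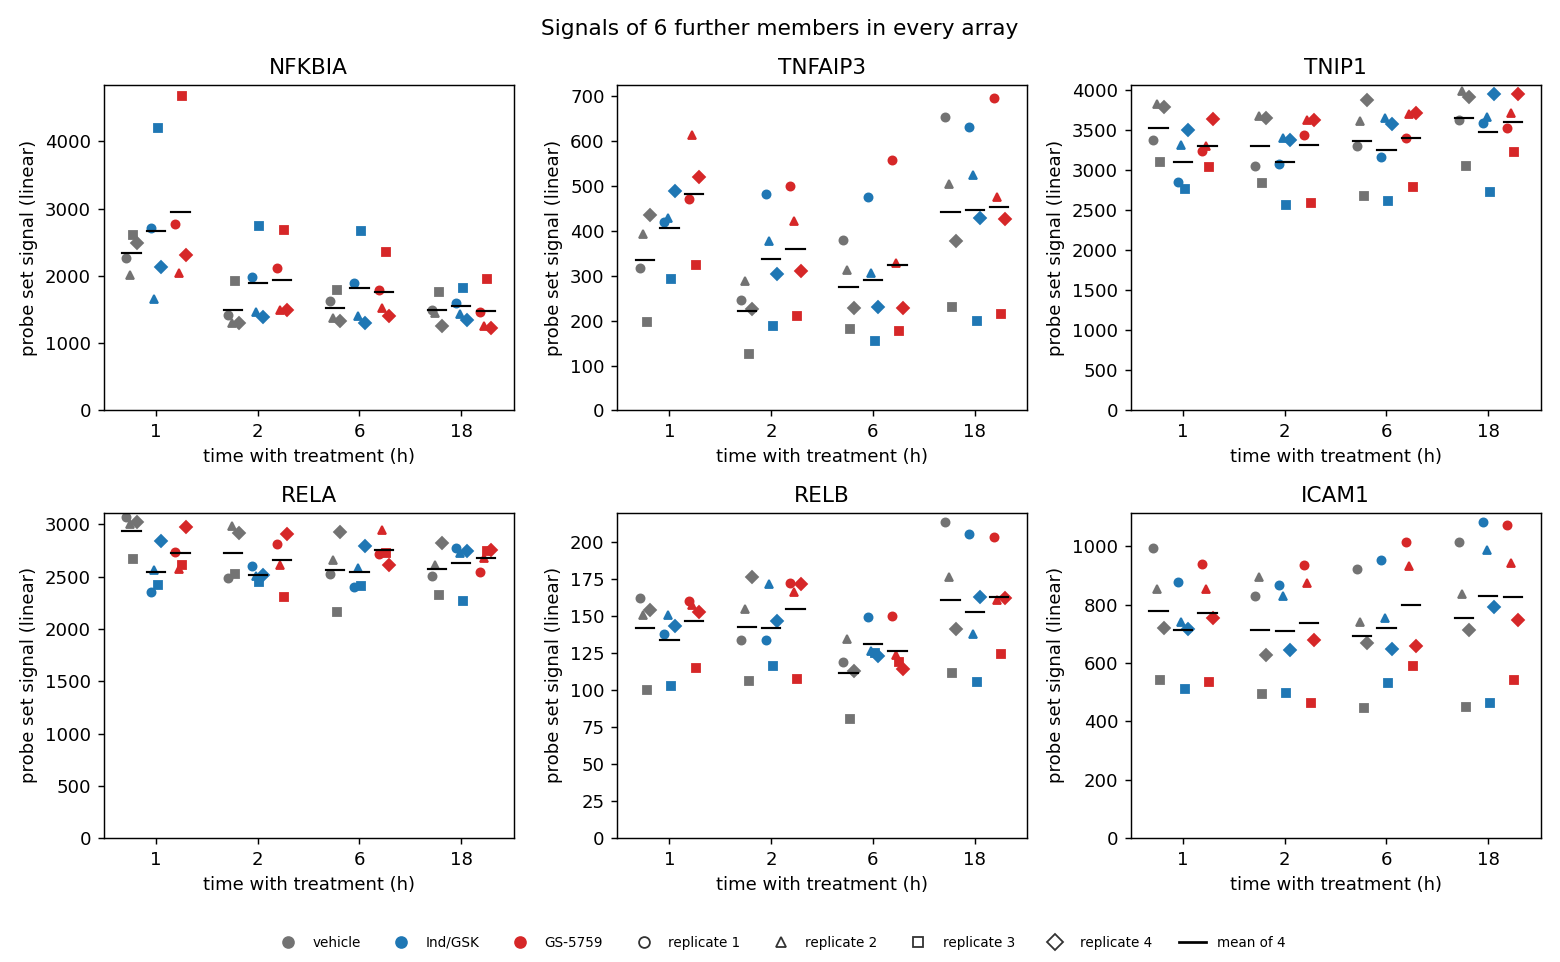
Probe set signal (linear axis from 0) of NFKBIA, TNFAIP3, TNIP1, RELA, RELB and ICAM1 in each array by time with treatment in h, with colours for treatments, marker shapes for replicates and black bars for means of 4. The squares of replicate 3 are the highest for NFKBIA and the lowest for TNFAIP3, TNIP1 and ICAM1 in 12 of 12 groups.

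Counted over the 9 members, 1 rose with Ind/GSK at 1 h, beside 0.451% of all tested genes, and 1 with GS-5759, beside 0.257%. None fell, beside 1.38% and 0.0139% of all genes. At 2 h 1 member rose with Ind/GSK, beside 1.34%, and 2 with GS-5759, beside 1.6%, and none fell, beside 2.16% and 0.833%. At 6 h none passed by limma, beside 1.03% risen and 2.7% fallen with Ind/GSK and 1.03% and 0.548% with GS-5759. At an unadjusted p under 0.05 there were 0 and 2 members at 6 h, beside 2107 and 1791 of the 14409 genes. At 18 h none passed, beside 0.0208% and 0.0278% with Ind/GSK and 0% and 0% with GS-5759, with 0 members at an unadjusted p under 0.05 for either, beside 850 and 462 of all genes. In these 8 comparisons the arrays did not overlap with vehicle for the members that passed without the block, and overlapped for the others. How many of all tested genes separated in this way was not counted, so this only describes the members. The members were chosen with earlier results known, so the counts are a description.

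The median difference of the 9 members is given beside that of all genes. It was -0.12 with Ind/GSK at 1 h, where the median of all genes was -0.10, and 0.06 with GS-5759 against -0.02. At 2 h it was 0.00 and 0.10 against -0.05 and -0.01, and at 6 h 0.07 and 0.17 against -0.04 and -0.00. At 18 h it was -0.02 and 0.02 against -0.02 and 0.01.

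With the replicate number as a block more genes passed, members and others alike. At 1 h 1 member rose with Ind/GSK, beside 2.28% of all genes, and 2 fell, beside 15.8%. With GS-5759 1 rose, beside 0.999%, and 0 fell, beside 0.354%. At 2 h 2 rose with Ind/GSK, beside 3.76%, and 0 fell, beside 8.11%, while 4 rose with GS-5759 (NFKBIA, NFKBIZ, TNFAIP3 and NFKB2), beside 5.27%, and 0 fell, beside 4.05%. At 6 h 0 passed with Ind/GSK, beside 4.68% risen and 13.1% fallen, and 1 rose with GS-5759, beside 6.01%, with 4.58% fallen. At 18 h 0 passed, beside 0.514% and 1.37% with Ind/GSK and 0.0972% and 0.0486% with GS-5759.

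**Figure D3:**
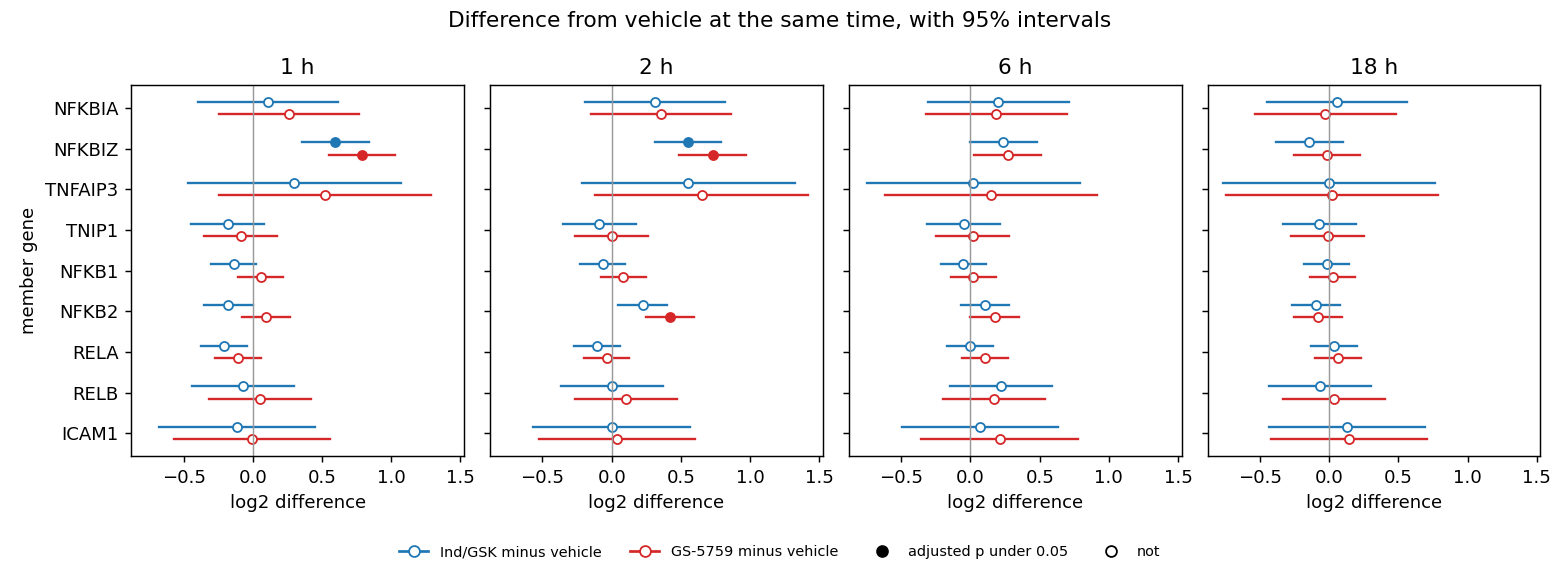
Log2 difference from vehicle (horizontal axis) of the 9 members at each time, for Ind/GSK in blue and GS-5759 in red. The 95% intervals are from the fit without the block. Filled points passed at adjusted p under 0.05 in that fit. The 5 filled points are NFKBIZ at 1 and 2 h with both treatments and NFKB2 at 2 h with GS-5759.

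Whether the single compound differed from the combination was asked over 36 pairs, 9 members at 4 times, with p-values adjusted over all tested genes. None passed by limma at any time, beside 0%, 0%, 0% and 0% of all genes at 1, 2, 6 and 18 h, and beside 0% with the block. At an unadjusted p under 0.05 there were 3 of 36 pairs, and 855, 273, 468 and 54 of the 14409 genes. The 3 were NFKB2 at 1 h, with GS-5759 above Ind/GSK by 0.27 (95% interval 0.10 to 0.45, unadjusted p = 0.00304, adjusted p = 0.769), NFKB1 at 1 h by 0.20 (0.03 to 0.36, adjusted p = 0.769) and NFKB2 at 2 h by 0.20 (0.03 to 0.37, adjusted p = 1). For NFKB2 and NFKB1 the GS-5759 and Ind/GSK arrays did not overlap at 1 h.

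For NFKBIZ GS-5759 was above Ind/GSK by 0.19 at 1 h (95% interval -0.05 to 0.43) and 0.18 at 2 h (-0.06 to 0.42). These intervals come from the fit without the block, which does not use the pairing. In it 33 of the 36 pairs had an interval that held 0, and the widest bounds, both of TNFAIP3, were -0.74 and 0.99. Equal response was therefore not shown, and intervals with the block are not given here. GS-5759 was higher in 33 of 36 pairs as the arrays were deposited, in 25 after quantile normalization and in 21 after 75th percentile centring. The members' median difference was 0.15, 0.10, 0.07 and 0.03 at 1, 2, 6 and 18 h, where that of all genes was 0.09, 0.05, 0.05 and 0.03. The comparisons with vehicle share the same vehicle arrays.

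**Figure D4:**
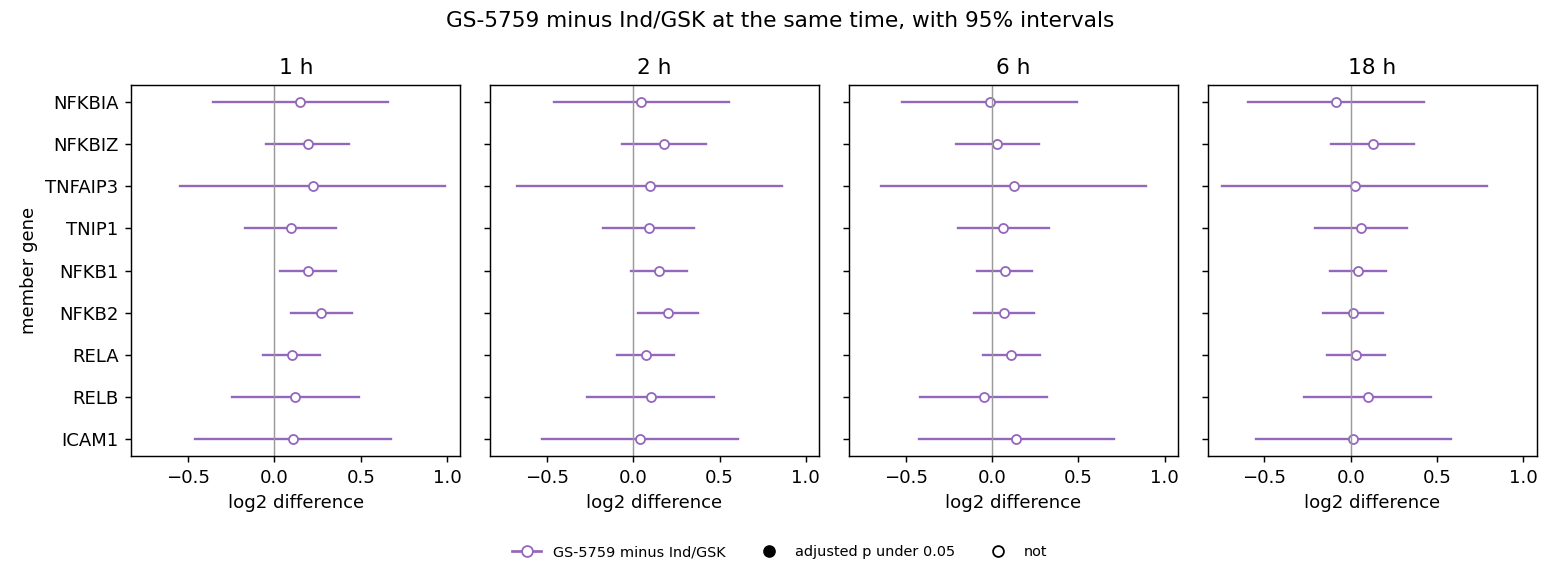
GS-5759 minus Ind/GSK as log2 difference (horizontal axis) for the 9 members at each time, with 95% intervals from the fit without the block. All points are open, since none passed, and 33 of the 36 intervals hold 0.

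The members were also compared over time in vehicle-treated cells. From 1 to 2 h NFKBIA went from 2259.7, 2006, 2613 and 2494 to 1421, 1303, 1923 and 1306, without overlap. The difference was -0.66 ± 0.25 (adjusted p = 0.147 by limma), -0.74 without replicate 3 (0.0156), and its adjusted p with the block was 0.000357. NFKBIZ and NFKB2 differed by -0.40 (0.0578) and -0.28 (0.0665), and with the block both passed, at 0.00567 and 0.0163, as did TNFAIP3 with -0.56 (0.0201). From 6 to 18 h TNFAIP3 differed by 0.61 (adjusted p = 0.356, 0.0049 with the block) and RELB by 0.45 (0.106, 0.00113 with the block). Without replicate 3 the blocked adjusted p from 6 to 18 h was 0.0132 for TNFAIP3 and 0.00522 for RELB, and from 1 to 2 h 0.0132 for NFKBIZ, 0.0249 for NFKB2 and 0.065 for TNFAIP3, so that the last no longer passed.

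Without the block 0 members passed over these intervals by limma, beside 0.881% risen and 1.69% fallen from 1 to 2 h, 0.174% and 0.132% from 2 to 6 h, and 7.97% and 3.57% from 6 to 18 h. At an unadjusted p under 0.05 there were 3, 1 and 1, beside 2405, 1234 and 3393 of all genes. The members' median was -0.13, 0.05 and 0.12, and that of all genes -0.05, 0.00 and 0.01. With the block 4 fell from 1 to 2 h, beside 12.3% of all genes (3.35% rose), 0 passed from 2 to 6 h, beside 3.56% and 1.5%, and 2 rose from 6 to 18 h, beside 19.5% (9.55% fell). After quantile normalization 134 of all genes rose and 55 fell from 1 to 2 h, in place of 127 and 243, and 958 and 832 from 6 to 18 h, in place of 1149 and 514. For the change of the mean response between successive times 0 members passed, beside 0.132%, 0.569% and 0.361% of all genes, with 1, 1 and 2 at an unadjusted p under 0.05, beside 1131, 1117 and 1149 of all genes. With the block 1 (NFKB2), 0 and 0 passed, beside 2.38%, 4.89% and 5.77%.

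Of the other genes of the pathway, 90 were listed by role and 66 were tested: 7 of 8 other subunits and inhibitors, 21 of 25 kinases and adaptors, 9 of 12 deubiquitinases and negative regulators, 10 of 18 receptors and ligands, and 19 of 27 other targets. At 1 h 2 of the 66 rose and 0 fell with either treatment, beside 0.451% risen and 1.38% fallen of all genes with Ind/GSK and 0.257% and 0.0139% with GS-5759. At 2 h 4 rose and 2 fell with Ind/GSK, beside 1.34% and 2.16%, and 4 and 1 with GS-5759, beside 1.6% and 0.833%. At 6 h the counts were 1 and 3, beside 1.03% and 2.7%, and 1 and 0, beside 1.03% and 0.548%. At 18 h 0 passed, beside 0.0208% and 0.0278%, and 0% and 0%. With the block 6 rose and 10 fell with Ind/GSK at 1 h, beside 2.28% and 15.8%, and 5 and 0 with GS-5759, beside 0.999% and 0.354%. At 2 h the blocked counts were 10 and 5, beside 3.76% and 8.11%, and 11 and 3, beside 5.27% and 4.05%. At 6 h they were 6 and 10, beside 4.68% and 13.1%, and 6 and 2, beside 6.01% and 4.58%. At 18 h they were 1 and 0 for each, beside 0.514% and 1.37%, and 0.0972% and 0.0486%. Between the treatments 0 of the 66 passed by limma at any time, beside 0% of all genes. At an unadjusted p under 0.05 there were 1, 0, 2 and 0, beside 855, 273, 468 and 54 of the 14409 genes. At 18 h, 1 and 2 reached an unadjusted p under 0.05 against vehicle with Ind/GSK and GS-5759, beside 850 and 462 of all genes.

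REL, the gene of the subunit c-Rel, rose at 2 h with both treatments. Its signal was 367, 441, 577 and 475 with vehicle, 729.6, 801, 1126 and 741 with Ind/GSK, and 825, 803, 1101 and 816 with GS-5759. No treated array overlapped with vehicle. REL rose by 0.84 ± 0.14, 1.79-fold (adjusted p = 8.07e-05 by limma), and by 0.91 ± 0.14, 1.88-fold (1.83e-05), and without replicate 3 the differences were 0.81 and 0.91. The 5 REL probe sets gave 0.61 to 0.99. At 1 h REL differed by 0.11 and 0.24 and at 6 h by 0.04 and 0.12, none passing, and the drop of its mean response from 2 to 6 h was -0.80 ± 0.17 with adjusted p = 0.0113. That drop did not pass without replicate 1, 2 or 4 (highest adjusted p = 0.162), and in a fit of the compared groups alone REL did not pass with Ind/GSK at 2 h (0.109).

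Among the targets, the cytokine gene IL6 went from 145, 161, 233 and 113 with vehicle at 1 h to 1733, 1141, 3393 and 1077 with Ind/GSK and 1842, 1520.0, 3340 and 1012 with GS-5759, without overlap. Its differences were 3.25 and 3.35 at 1 h and 2.75 and 2.86 at 2 h (adjusted p from 4.07e-05 to 0.000327 by limma). The chemokine gene CXCL2 rose by 2.06 and 2.29 at 1 h and 1.68 and 1.87 at 2 h. CXCL2 passed neither at 1 h nor at 2 h without replicate 1 or without replicate 2 (highest adjusted p = 0.196), and its other 2 probe sets gave -0.06 to 0.15 at these times. IL6 passed in each fit that left out arrays. Without replicate 3 IL6 differed by 3.08 and 3.21 at 1 h and 2.32 and 2.50 at 2 h, and CXCL2 by 2.01 and 2.31, and 1.54 and 1.78, all of which passed. SOD2, a mitochondrial superoxide dismutase, rose by 0.49 with Ind/GSK at 2 h (0.0398), but passed in 2 of 12 fits that left out arrays, and not without replicate 1, 2 or 4. Without replicate 3 the SOD2 difference was 0.61 (0.0311).

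Of receptors and signalling genes, the TNF receptor gene TNFRSF1A rose at 6 h from 2750, 2509, 2042 and 2613 with vehicle to 3126, 3343, 2965 and 3174 with Ind/GSK and 3498, 3367, 2939 and 3351 with GS-5759. Its differences were 0.35 and 0.41 (adjusted p = 0.00359 and 0.000911 by limma), and did not pass without replicate 2 (0.0887 and 0.057), while TNFRSF1A passed without replicate 3 (0.29 and 0.37, adjusted p = 0.0266 and 0.00453). IL1RAP, the accessory chain of the IL-1 receptor, rose by 0.62 with GS-5759 at 2 h (0.041), but passed in 3 of 12 fits that left out arrays, and not without replicate 1, 2 or 4. Without replicate 3 the IL1RAP difference was 0.67 (0.00146). MAP3K14, the kinase NIK that leads to processing of p100, fell by 0.44 with Ind/GSK at 2 h (0.0303), but passed in 4 of 12 such fits, and not without replicate 2, 3 or 4. OTUD7B, a deubiquitinase of that branch, fell by 0.29 and 0.25 at 2 h and by 0.27 with Ind/GSK at 6 h, while its other probe sets ranged from -0.36 to 0.15 at 2 h. Without replicate 1 OTUD7B passed in none of these comparisons (highest adjusted p = 0.19 over all fits that left out arrays), and without replicate 3 it passed in all of them (0.0178, 0.0382 and 0.0303). IRAK1 and TOLLIP, of the IL-1 and Toll-like receptor pathway, fell by 0.26 each with Ind/GSK at 6 h and passed neither after the other scalings nor without replicate 3. In fits of the compared groups alone CXCL2, SOD2, TNFRSF1A, IL1RAP, MAP3K14, OTUD7B, IRAK1 and TOLLIP did not pass in the comparisons with vehicle, nor IL6 with Ind/GSK at 2 h.

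In vehicle cells the lymphotoxin gene LTB rose by 0.33 from 1 to 2 h. From 6 to 18 h the adaptor MYD88 and the receptors TLR4, TNFRSF1A and LTBR fell by 0.42, 0.51, 0.32 and 0.26 while RBCK1, of the linear ubiquitin ligase, rose by 0.33 (adjusted p from 0.00285 to 0.0371 by limma). None of these 6 genes passed without replicate 1, and RBCK1 did not after either other scaling. Without replicate 3 LTBR did not pass (-0.26, adjusted p = 0.0538), and LTB (0.39), MYD88 (-0.48), TLR4 (-0.68), TNFRSF1A (-0.42) and RBCK1 (0.35) did, with adjusted p from 0.000257 to 0.0343. With the block 4 of the 66 rose and 17 fell from 1 to 2 h, beside 3.35% and 12.3% of all genes, 5 and 3 from 2 to 6 h, beside 3.56% and 1.5%, and 9 and 10 from 6 to 18 h, beside 19.5% and 9.55%. Without the block 1 rose from 1 to 2 h, beside 0.881%, and 1 rose and 4 fell from 6 to 18 h, beside 7.97% and 3.57%. A list of 10 genes known to answer cyclic AMP was also read. It was chosen with earlier results of these data known, so its counts are a description and no test that the drugs acted. With each treatment 7 rose at 1 h, beside 0.451% of all genes with Ind/GSK and 0.257% with GS-5759. At 2 h 10 of 10 rose with each, beside 1.34% and 1.6%. At 6 h 6 and 4 rose, beside 1.03% for each, and none rose at 18 h, beside 0.0208% and 0%. With the block 9 rose with each at 1 h, beside 2.28% of all genes with Ind/GSK and 0.999% with GS-5759. At 2 h 10 rose, beside 3.76% and 5.27%, and at 6 h 7, beside 4.68% and 6.01%. At 18 h 1 rose with Ind/GSK, beside 0.514%, and 0 with GS-5759, beside 0.0972%.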

How the data were processed

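The deposited values are probe set intensity on a linear scale for 48 arrays. Per the submitters' processing notes the authors used PLIER and Affymetrix Expression Console; versions, background correction and normalization are not given in the sources used here, and the intensities were taken as deposited.

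Of 54675 probe sets, 41097 carried 1 symbol in the platform annotation, 1801 several, 11721 none and 62 were controls. Each gene kept its probe set with the highest mean log2(intensity + 16), and genes above the 40th percentile of all probe sets (signal 75.4) were tested. One limma (version 3.58.1, in R 4.3.3) fit over the 12 groups gave 18 contrasts, with Benjamini-Hochberg adjustment over 14409 genes; figures used Python 3.11.15 and matplotlib 3.10.9. The code was tested on simulated data. "Passed" means adjusted p under 0.05.

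The labels number replicates 1 to 4 in every group. Deviations from the group means correlated in 60 of 60 same-numbered pairs (0.201 to 0.931), while differently numbered pairs reached up to 0.747. In 103 of 120 cases, which count each of the 48 arrays more than once, an array correlated best with its own number. The numbers were therefore taken to pair the arrays, and the fit without the block was the main one. Alternatives were other pseudocounts, filters and scalings, the replicate block, the compared groups alone and left-out arrays. Block fits combined with another scaling or without replicate 3 were added after seeing the data.

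The members and gene lists were chosen with earlier results of these data known. All members are named; from other lists, up to 4 genes per comparison that passed, by size of difference; and the 3 genes most correlated with each member that passed. BIRC3 was not analysed here.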

Additional observations from a re-analysis of the deposited data

Results flagged for a closer look

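In 11 of 108 tests, over 9 members and 12 groups of 4 arrays, 1 array stood farther from the other 3 than Dixon's criterion allows, where chance gives about 1 in 20 groups. In 8 of the 11 it was the array of replicate 3, low each time. These were NFKBIZ with GS-5759 at 18 h (296.4, others 376.9 to 387.7), TNIP1 with GS-5759 at 2 h (2585, others 3438 to 3625) and NFKB2 with Ind/GSK at 18 h (330.6, others 422.7 to 430.3). RELA was low with vehicle at 1 h (2669, others 3006 to 3066) and with Ind/GSK at 18 h (2270, others 2727 to 2775). RELB was low with vehicle at 1 h (100.5, others 150.7 to 162.2), with GS-5759 at 1 h (115.4, others 153.1 to 160.3) and with GS-5759 at 2 h (107.8, others 166.3 to 172.5). The other 3 were NFKB2 with GS-5759 at 6 h in replicate 4 (371.9, low) and at 18 h in replicate 1 (431.8, high), and RELB with Ind/GSK at 6 h in replicate 1 (149.8, high).

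The mean response of REL differed between 2 and 6 h by -0.7978, tested as an interaction in limma (SE 0.17, adjusted p = 0.0113).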

How the results depend on the processing

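The number of members that passed was within 1.5 times the reported count in 24 of 24 alternatives at 18 h and between the treatments, 21 and 23 of 24 at 1 h (Ind/GSK and GS-5759), 19 and 20 at 2 h, and 22 and 21 at 6 h. Over the vehicle intervals it was 17, 23 and 18 of 24, and for the change of the mean response 39, 38 and 40 of 40. Where the reported count was 0, the same count means 0 again. Between the treatments 0% of all genes passed with or without the block. At 18 h 0.0208% rose and 0.0278% fell with Ind/GSK and 0% with GS-5759 without it. Agreement in these comparisons therefore says little about the members. No member difference from vehicle at the same time changed direction while called, nor did that of a pathway gene that passed. The direction of member differences in the other comparisons was not checked across the alternatives. With the replicate number as a block, which uses the pairing, 3 members passed with Ind/GSK at 1 h, 2 with Ind/GSK and 4 with GS-5759 at 2 h, 1 with GS-5759 at 6 h, 1 for the change from 1 to 2 h, 4 in vehicle from 1 to 2 h and 2 from 6 to 18 h. The block changed no other count. In fits of the compared groups alone, which hold fewer arrays, 0 passed at 1 h with Ind/GSK, 0 with GS-5759, 0 at 2 h with Ind/GSK and 1 with GS-5759. The block with quantile normalization, chosen after seeing the data, gave 3 with Ind/GSK at 2 h, 1 and 1 at 6 h, 1 for the change from 2 to 6 h, 3 in vehicle from 1 to 2 h and 2 from 6 to 18 h. With 75th percentile centring, added likewise, it gave 4 and 4 at 2 h, 1 and 1 at 6 h, 1 for the change from 2 to 6 h, and 3, 1 and 2 over the vehicle intervals. Without replicate 3, also added, it gave 3 with Ind/GSK at 1 h, 3 in vehicle from 1 to 2 h and 2 from 6 to 18 h. Shares of all genes are not given here for the fits added after seeing the data or for those with left-out arrays. Their member counts are a description only. The cause of the moves in these counts was not tested. Leaving out arrays without the block gave 0 to 1 with Ind/GSK at 2 h (0 without replicate 3), 1 to 2 with GS-5759 at 2 h (1 without replicate 1), 0 to 2 in vehicle from 1 to 2 h and 0 to 1 from 6 to 18 h. Depth does not apply to arrays; their number sets the width of the intervals.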
